A study of Homo sapiens with 3 samples.

Results

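The 10 genes described here encode the subunits of condensin and the SMC core of cohesin, protein rings that fold and hold chromosomes. They were chosen by name: SMC2 and SMC4, shared by both condensins, NCAPD2, NCAPG and NCAPH of condensin I, NCAPD3, NCAPG2 and NCAPH2 of condensin II, and SMC1A and SMC3 of cohesin. On the arrays they were represented by 24 of 54613 probe sets, and as genes by 10 of 19775. RNA came from IMR-90 cells, human fetal lung fibroblasts, collected 24 h after transfection with RNAiMAX of the control siRNA labelled GL3, of SETD8 siRNA 1 (labelled SETD8-1) or of SETD8 siRNA 2 (labelled SETD8-2). All 3 cultures were grown in DMEM-F12 with 10% heat-inactivated serum. Each siRNA was represented by 1 array, so no value has a replicate error, no p-value is given, and a difference between arrays is not separated from a difference between cultures.

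SMC proteins are long coiled coils that dimerise at a hinge and close into a ring through an ATPase head at either end and a kleisin subunit, to which further subunits with HEAT repeats bind. Condensin I reaches the chromosomes once the nuclear envelope has broken down, condensin II is nuclear through the cell cycle, and together they shape mitotic chromosomes, whereas cohesin holds sister chromatids together and forms loops in interphase. SETD8, now named KMT5A, is the enzyme that monomethylates histone H4 at lysine 20, a mark to which the condensin II subunits NCAPD3 and NCAPG2 have been shown to bind. The comparison thus asks how the transcripts of these complexes differ when the enzyme that writes the mark is targeted.

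KMT5A signal lay between 45.9% and 74.7% of control over its 4 probe sets with SETD8 siRNA 1, and the same probe sets gave 62.2% to 86.3% of control with SETD8 siRNA 2. The median signal over all probe sets was 44.9 to 46.2 on the 3 arrays. Fibroblast markers were present: all 14 genes of that list, such as COL1A1 and VIM, passed the filter on low signal. Of the other markers, 1 of 7 epithelial, 3 of 6 endothelial and 1 of 5 leukocyte genes passed, and CDH1, CDH5 and PTPRC, which define those types, did not. The summed signal of the endothelial list was 1386.9 on the control array, 1582.9 with siRNA 1 and 2193.3 with siRNA 2, most of it from TEK. The other endothelial genes that passed were dim and over 2-fold higher with SETD8 siRNA 1: PECAM1 gave 49, 135 and 52.7 on the 3 arrays, and VWF 59.7, 130.5 and 80.9. The epithelial list summed to 273.1, 114.9 and 311.9 in that order, and the leukocyte list to 192.4, 198 and 190.8. The part of other cell types in the results below was not tested.

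The promoters of SMC4, NCAPD2, NCAPG and NCAPH, whose transcripts were lower with both SETD8 siRNAs, and that of SMC3, near the 2-fold line, are shown because genes expressed in G2 and mitosis often carry a cell cycle gene homology region near the start, together with CCAAT boxes. Each is the 160 bases that end just before the transcription start in the RefSeq annotation of GRCh38.p14, on the gene's strand. Capitals mark TTTGAA, written TTCAAA when it lies on the other strand, and CCAAT, written ATTGG on the other strand.
SMC4, plus strand, chr3:160399490-160399649: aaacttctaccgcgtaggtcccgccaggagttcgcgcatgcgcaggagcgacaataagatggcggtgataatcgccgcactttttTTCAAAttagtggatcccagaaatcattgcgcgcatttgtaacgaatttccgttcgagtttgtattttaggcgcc
NCAPD2, plus strand, chr12:6493942-6494101: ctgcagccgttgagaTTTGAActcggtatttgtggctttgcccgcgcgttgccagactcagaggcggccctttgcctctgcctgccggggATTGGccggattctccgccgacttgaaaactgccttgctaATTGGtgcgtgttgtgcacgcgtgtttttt
NCAPG, plus strand, chr4:17810819-17810978: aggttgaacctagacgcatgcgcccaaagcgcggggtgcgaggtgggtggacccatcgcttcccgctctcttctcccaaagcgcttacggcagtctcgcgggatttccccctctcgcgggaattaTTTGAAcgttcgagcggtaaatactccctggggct
NCAPH, plus strand, chr2:96335606-96335765: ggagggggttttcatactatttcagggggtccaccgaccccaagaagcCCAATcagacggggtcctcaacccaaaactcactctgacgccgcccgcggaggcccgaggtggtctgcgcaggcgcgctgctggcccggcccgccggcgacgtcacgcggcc
SMC3, plus strand, chr10:110567535-110567694: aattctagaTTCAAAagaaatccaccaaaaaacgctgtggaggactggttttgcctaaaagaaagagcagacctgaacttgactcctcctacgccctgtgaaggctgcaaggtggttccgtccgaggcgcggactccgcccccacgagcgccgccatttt

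The RefSeq table held 13 promoters for 9 of the 10 genes, each running from 250 bases before to 50 bases after a start. Both strands were searched for TTTGAA and TTCGAA (the homology region), for CCAAT, and for the E2F sites TTTCCCGC, TTTGGCGC, TTTCGCGC and TTTGCCGC, and the 16 matches did not overlap each other. TTTGAA was found in 7 of the 13 promoters, where 15.2% of all 35116 promoters in the table held it, and TTCGAA in none. Of the genes, 4 (SMC2, SMC4, NCAPD3 and SMC1A) had over 1 promoter, and in each of these 1 promoter held no match of any kind. In NCAPG, TTTGAA began 35 bases before the start and in 1 promoter of SMC4 75 bases before it, whereas in NCAPG2 it lay 36 bases into the transcript. NCAPD2 had 4 CCAAT matches, 2 of them in the stretch shown and the nearest 30 bases before the start, and NCAPH had 1 CCAAT match and TTTGAA in neither direction. A CCAAT box was held by 3 of the 13 promoters against 34.6% of all, and an E2F site by 2 of the 13, of NCAPD3 and SMC1A, against 3.31%. A match describes these letters only and is not shown to be a bound site. TTTGAA occurred both in promoters of genes at the far end of the range, such as NCAPG, and in that of SMC3 and 1 promoter of NCAPD3.

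**Figure D1:**
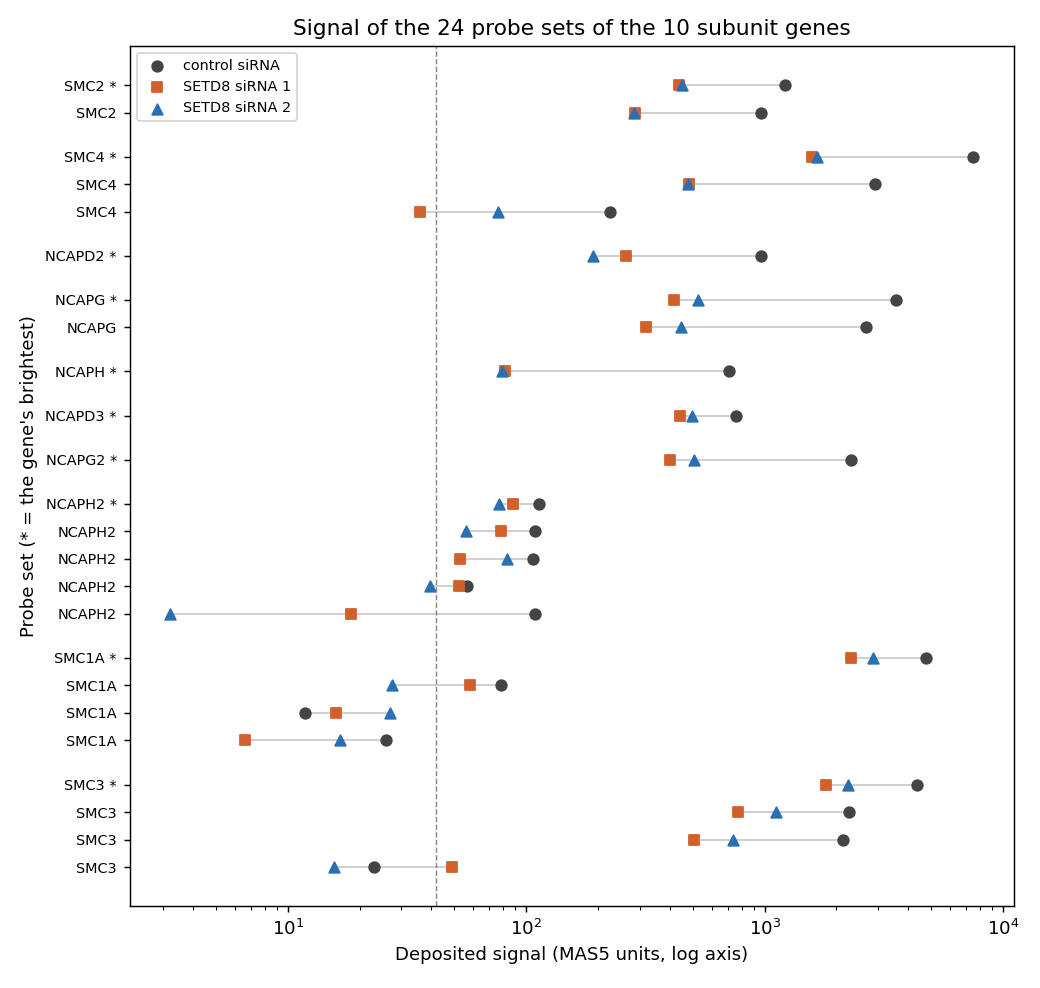
Deposited signal (log axis) of the 24 probe sets of the 10 genes on the control array (circles), the SETD8 siRNA 1 array (squares) and the SETD8 siRNA 2 array (triangles). The dashed line is the filter signal of 42.0. The control array is the highest on every probe set whose 3 signals all lie above that line, and the exceptions, 1 of SMC1A and 1 of SMC3, are dim.

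On either SETD8 siRNA array all 10 genes had a lower signal than on the control array, where 51.6% (siRNA 1) and 51.1% (siRNA 2) of the 12307 genes compared were lower at any size. At least 2-fold lower were 8 of 10 with SETD8 siRNA 1, against 7.75% of all genes, and 6 of 10 with SETD8 siRNA 2, against 6.65% of all genes. No subunit was higher. The median log2 fold change of the 10 was -1.68 for siRNA 1 (SD over genes 0.96) and -1.81 for siRNA 2 (SD over genes 0.95), beside -0.02 and -0.01 over all genes. Both comparisons use the same control array, so they are not independent of each other. In bulk RNA, fewer cells that express a gene and less of its RNA per cell cannot be told apart. Fold changes refer to each gene's brightest probe set, and each of the 10 lay above the filter signal of 42.0 on every array.

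For want of replicates, a fold change is set beside how far the SETD8 siRNA arrays lay from each other, in either direction, at the 95th percentile of genes of like signal. On the log2 scale that was 2.21 in the lowest of 4 equal signal classes, 1.72 in the second, 1.25 in the third and 1.14 in the highest, and it contains any true difference between the siRNAs along with array noise. Beyond it in the lower direction were 6 of the 10 genes with SETD8 siRNA 1, against 3.11% of all genes. With SETD8 siRNA 2 they were 5 of 10, against 2.61%. KMT5A itself, with -1.12 (siRNA 1) and -0.68 (siRNA 2) on its brightest probe set, was inside the spread of every signal class.

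The SMC pair of both condensins was lower throughout. SMC4 gave 7511.3 on the control array, 1587.5 on the siRNA 1 array and 1653.8 on the siRNA 2 array. These are 4.73-fold and 4.54-fold lower values, beyond the 1.14 of its signal class on the log2 scale (-2.24 and -2.18). Its dimmer probe sets gave -2.58 and -2.60, and -2.65 and -1.56, where the value for SETD8 siRNA 1 comes first, as in all such pairs below. SMC2, its partner, read 1216.3 on the control array, 437.9 with siRNA 1 and 450.0 with siRNA 2. Both SETD8 siRNA arrays thus lay well under the control and close to each other. The log2 fold changes of SMC2 were -1.47 and -1.43, and -1.76 and -1.78 on its other probe set, the former pair inside the 1.72 of its class.

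All 3 subunits specific to condensin I were at least 2-fold lower with either siRNA. Their medians were -3.09 and -2.76, against -1.86 and -1.81 for the SMC pair and -0.78 and -0.62 for the subunits of condensin II. Medians of so few genes moved with the processing. The 75th percentile filter, which left out NCAPH and NCAPH2, gave -2.49 and -2.55 for condensin I and -1.65 and -1.40 for condensin II. With probe sets averaged, condensin I had -3.07 and -2.66 and condensin II had -0.90 and -1.12. NCAPH, the kleisin that closes the ring of condensin I, gave 710.2 on the control array, 81.3 on the siRNA 1 array and 78.8 on the siRNA 2 array. It was 8.74-fold and 9.01-fold lower, and ranked 32nd and 35th from the lowest of the 12307 genes. NCAPG, one of its HEAT-repeat subunits, read 3550.2 on the control array, 416.9 with siRNA 1 and 525.5 with siRNA 2. Its log2 fold changes were -3.09 and -2.76, and those of the other probe set, -3.05 and -2.57, were close to them. NCAPD2, the other HEAT-repeat subunit, had 968.8, 261.6 and 190.1 on the 3 arrays in the same order. Its signal was lowest on the SETD8 siRNA 2 array (-1.89 and -2.35), a gap of 0.46 between the siRNAs that is inside the 1.72 of its class. NCAPH and NCAPD2 were each measured by 1 probe set.

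Condensin II was split. NCAPG2, its HEAT-repeat counterpart of NCAPG, gave 2307.6 on the control array, 399.8 on the siRNA 1 array and 506.4 on the siRNA 2 array. It was 5.77-fold and 4.56-fold lower, nearer to the condensin I subunits than to the other genes of its own complex. NCAPD3, the larger HEAT-repeat subunit, had 758.6, 441.9 and 494.4, which gives log2 fold changes of -0.78 and -0.62. Both are under 2-fold and inside the 1.72 of its class, and 11.5% and 13.7% of all genes were as low or lower. NCAPG2 and NCAPD3, the subunits that bind methylated H4 lysine 20, thus differed in size of change by 1.75 with SETD8 siRNA 1 and by 1.57 with SETD8 siRNA 2 on the log2 scale. NCAPG2 and NCAPD3 were each measured by 1 probe set, and the design allows no test of that difference.

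NCAPH2, the kleisin of condensin II, was dim on all arrays and its probe sets disagreed in size. The brightest read 112.9 on the control array, 88.3 with siRNA 1 and 76.6 with siRNA 2, or -0.35 and -0.56. Another read 108.7, 18.5 and 3.2 in the same order, the last under the floor of 11.7 at which low signals were set, so that its -2.55 is measured and its -3.22 rests on the floor. The remaining 3 ranged from -0.11 to -1.02 with SETD8 siRNA 1 and from -0.37 to -0.96 with SETD8 siRNA 2. As a mean of all 5 probe sets, NCAPH2 had -0.90 ± 0.98 (SD over 5 probe sets) and -1.12 ± 1.19 (SD over 5 probe sets), which puts it past 2-fold with SETD8 siRNA 2. That crossing rests on the probe set at the floor, since the other 4 gave -0.37 to -0.96 with SETD8 siRNA 2, each under 2-fold. All 5 of its probe sets were lower than the control with both siRNAs.

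**Figure D2:**
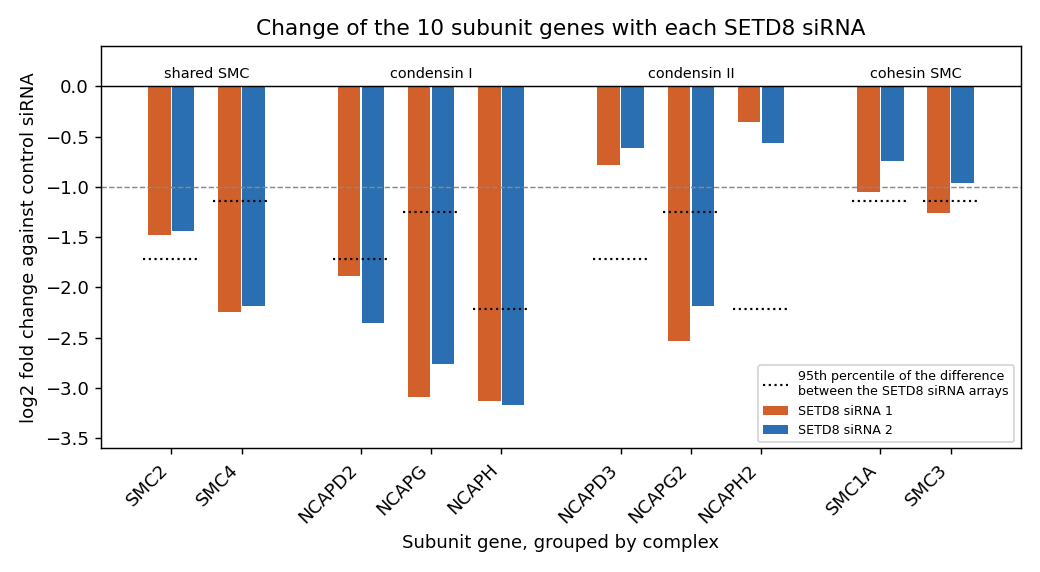
Bars give the log2 fold change of each gene's brightest probe set against the control array, with SETD8 siRNA 1 on the left and SETD8 siRNA 2 on the right of each pair (1 array each, no error bar). The dashed line marks 2-fold and the dotted lines the 95th percentile of the difference between the SETD8 siRNA arrays at that signal. NCAPG, NCAPH, SMC4, NCAPD2 and NCAPG2 pass the dotted line with both siRNAs, and SMC3 passes it with SETD8 siRNA 1.

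On the brightest probe sets, the SMC core of cohesin lay near the 2-fold line. SMC3 gave 4353.9 on the control array, 1816.1 on the siRNA 1 array and 2236.2 on the siRNA 2 array, a 2.40-fold and a 1.95-fold lower value. SMC1A, with which it forms the dimer, had 4751.6, 2294.4 and 2846.1, or 2.07-fold and 1.67-fold lower. These were the genes just inside and just outside the 2-fold rule. The difference between 8 genes with SETD8 siRNA 1 and 6 with SETD8 siRNA 2 thus comes from SMC1A and SMC3 alone. With probe sets averaged the counts were 6 with SETD8 siRNA 1 and 8 with SETD8 siRNA 2, so which is larger depends on the processing. Those averages take in dim probe sets of SMC1A and SMC3 and an NCAPH2 probe set at the floor. Relative to the 1.14 of their class, SMC3 with SETD8 siRNA 1 (-1.26) was beyond it, and SMC3 with SETD8 siRNA 2 (-0.96) and SMC1A (-1.05 and -0.74) were inside it.

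Not all probe sets of the cohesin genes ran the same way. For SMC3, the other bright probe sets gave lower values than the brightest, -1.56 and -1.02 for 1 and -2.07 and -1.53 for the other, all past 2-fold. A dim one read 22.9 on the control array, 48.9 with siRNA 1 and 15.6 with siRNA 2 and did not pass the filter. For SMC1A, the 3 further probe sets had signals of 78.4 or less on every array, and 1 of them ran the other way, with 11.8 on the control array and 16 and 26.9 on the others. With probe sets averaged, SMC1A had -0.55 and -0.42 and SMC3 had -0.95 and -1.02. Over all 24 probe sets, 22 were below the control array for siRNA 1 and 23 for siRNA 2. The 4 that did not pass the filter belonged to NCAPH2, SMC1A (2) and SMC3.

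**Figure D3:**
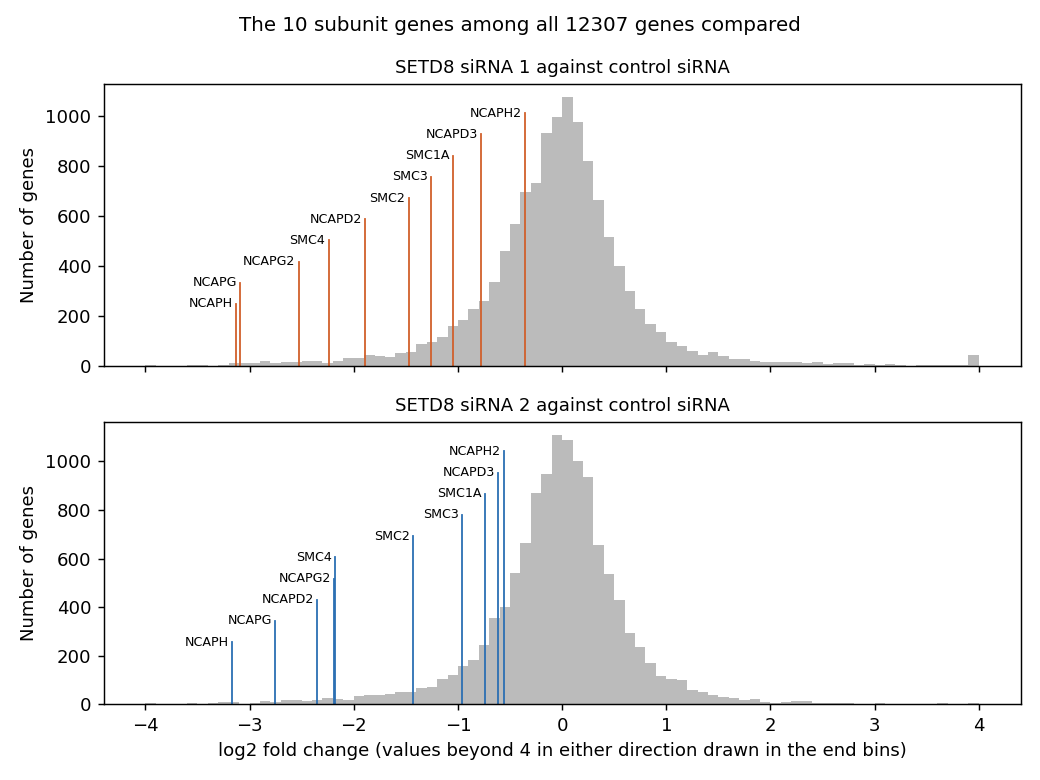
Histograms of the log2 fold changes of all 12307 genes compared, for SETD8 siRNA 1 (top) and SETD8 siRNA 2 (bottom), with the 10 genes marked by lines whose heights only separate the names. NCAPH and NCAPG lie furthest in the left tail in both panels, and NCAPH2 lies nearest to the bulk.

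From the lowest fold change upward, the order with SETD8 siRNA 1 was NCAPH, NCAPG, NCAPG2, SMC4, NCAPD2, SMC2, SMC3, SMC1A, NCAPD3 and NCAPH2. With SETD8 siRNA 2 it was NCAPH, NCAPG, NCAPD2, NCAPG2, SMC4, SMC2, SMC3, SMC1A, NCAPD3 and NCAPH2, which moves NCAPD2 ahead of NCAPG2 and SMC4. Neighbours in either order were at most 0.56 and 0.75 apart on the log2 scale, less than the spread between the SETD8 siRNA arrays at any signal, so the place of a gene against its neighbours is not resolved. The ends of the order were 2.77 apart with SETD8 siRNA 1 and 2.61 with SETD8 siRNA 2. The spread in the lowest signal class, to which both NCAPH and NCAPH2 belong, was 2.21. That spread is for a single gene, whereas the ends are the extremes of the list, so it cannot decide whether they differ. The NCAPH2 end was read from a dim probe set. The NCAPH2 probe set that did not pass the filter gave -2.55 and -3.22 (the latter at the floor), beside -3.13 and -3.17 for NCAPH. The other NCAPH2 probe sets gave -0.11 to -1.02 and -0.37 to -0.96.

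Between the SETD8 siRNA arrays themselves, 0 of the 10 genes differed by 2-fold or more in either direction, where 12.6% of all genes did. Beyond the 95th percentile for their signal were 0 as well. A list of 10 is too short to set 0 apart from such shares. The largest of these differences were those of NCAPD2 (-0.46, siRNA 2 minus siRNA 1) and NCAPG2 (0.34). Dimmer probe sets of SMC4 (1.08), SMC1A (-1.08) and SMC3 (-1.65, not past the filter) were over 2-fold apart. As each of the 10 genes lay inside the 95th percentile for its signal, which SETD8 siRNA array was the lower is not resolved. KMT5A gave 431.4 with SETD8 siRNA 1 and 584.1 with SETD8 siRNA 2 on its brightest probe set, and 345.2 and 354.4 on another. Whether the subunits follow KMT5A in this respect was not tested.

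The other genes of the cohesin machinery were described by list, and the counts of genes at least 2-fold lower in this and the following lists stand beside 7.75% of all genes with SETD8 siRNA 1 and 6.65% with SETD8 siRNA 2. RAD21, the kleisin cut at anaphase, had -0.60 and -0.80, and the STAG subunits, which bind it, had -0.74 and -0.36 (STAG1) and 0.12 and -0.21 (STAG2), so 0 of 3 were 2-fold lower with either siRNA, although STAG1 reached -1.12 with SETD8 siRNA 1 when its probe sets were averaged. Among 13 genes of loading, acetylation, protection and release, 6 were at least 2-fold lower with SETD8 siRNA 1, 5 with SETD8 siRNA 2, and 0 were 2-fold higher with either, and the list medians were -0.35 and -0.32. ESCO2 and SGO1 were above the filter signal of 42.0 on the control array alone, so they passed only through the array where they are high, and with the 75th percentile filter 4 of 10 and 3 of 10 genes were 2-fold lower. SGO1, a shugoshin that guards centromeric cohesin, read 186.5 on the control array, 34.2 with siRNA 1 and 23.5 with siRNA 2. SGO2, the other shugoshin, had -2.63 and -1.94. The acetyltransferase of S phase, ESCO2, read 153.9, 29.5 and 36.3 on the 3 arrays, CDCA5 (sororin, which stabilises cohesin on replicated DNA) 224.5 and 250.4 against 899.6 on the control array, and PTTG1 (securin) -1.41 and -1.88. ESPL1, the separase that cuts RAD21, was past 2-fold with SETD8 siRNA 1 alone (-1.25 and -0.32). The loader NIPBL (0.06 and -0.31), the release factor WAPL (-0.07 with either) and PDS5A (-0.11 and -0.24) were near the control, and the sign for SETD8 siRNA 1 turned for NIPBL (-0.17) and WAPL (0.25) with probe sets averaged.

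SMC5 and SMC6 form the third SMC complex of the nucleus, which acts in DNA repair. Of its 8 genes, 2 were at least 2-fold lower with SETD8 siRNA 1 and 1 with SETD8 siRNA 2. The list medians were -0.38 and -0.50. A list of 8 is too short to set 1 or 2 genes apart from the shares of all genes given above. SLF1, which recruits the complex to damaged DNA, had -1.15 and -1.24, and SMC6 had -1.02 and -0.61, the former just under 2-fold after median scaling (-0.99). NSMCE4A had -0.85 and -0.93, but -0.04 and -0.10 without shared probe sets. SLF2 had -0.41 and -0.46, which turned to 0.12 and 0.17 with probe sets averaged.

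The list of proteins that work with condensin on chromosomes held genes that were lower and genes near the control. TOP2A, the topoisomerase that untangles sister chromatids, gave 7406.5 on the control array, 873.0 on the siRNA 1 array and 1162.6 on the siRNA 2 array. Its paralogue TOP2B, expressed outside mitosis too, had -0.30 and -0.71. The chromokinesin KIF4A had -3.10 and -2.86, and MKI67, the protein that coats mitotic chromosomes, had -2.51 and -2.07. SMCHD1, a non-canonical SMC protein, had -0.36 and -1.03 (-0.83 with probe sets averaged). AKAP8, an anchoring protein that brings condensin to mitotic chromosomes, was above the control with 0.33 and 0.27. In this list 3 of 7 genes were at least 2-fold lower with SETD8 siRNA 1 and 4 of 7 with SETD8 siRNA 2. Of 5 kinases that phosphorylate condensin, 4 were at least 2-fold lower with either siRNA: CDK1 (-2.88 and -1.92), AURKB (-2.54 and -2.35), PLK1 (-1.47 and -2.27) and TTK (-3.07 and -2.72). PLK1 was dim, with 26.6 on the siRNA 2 array against 128.5 on the control array, and with the 75th percentile filter 2 of 3 kinases were 2-fold lower. CSNK2A1, the catalytic subunit of casein kinase 2, which is not a cell cycle kinase, had 0.16 and -0.28, the former being -0.40 without shared probe sets. MKI67 and TOP2A are markers of proliferating cells that moved with the condensin genes, and the part of a smaller share of cycling cells in these values was not tested.

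**Figure D4:**
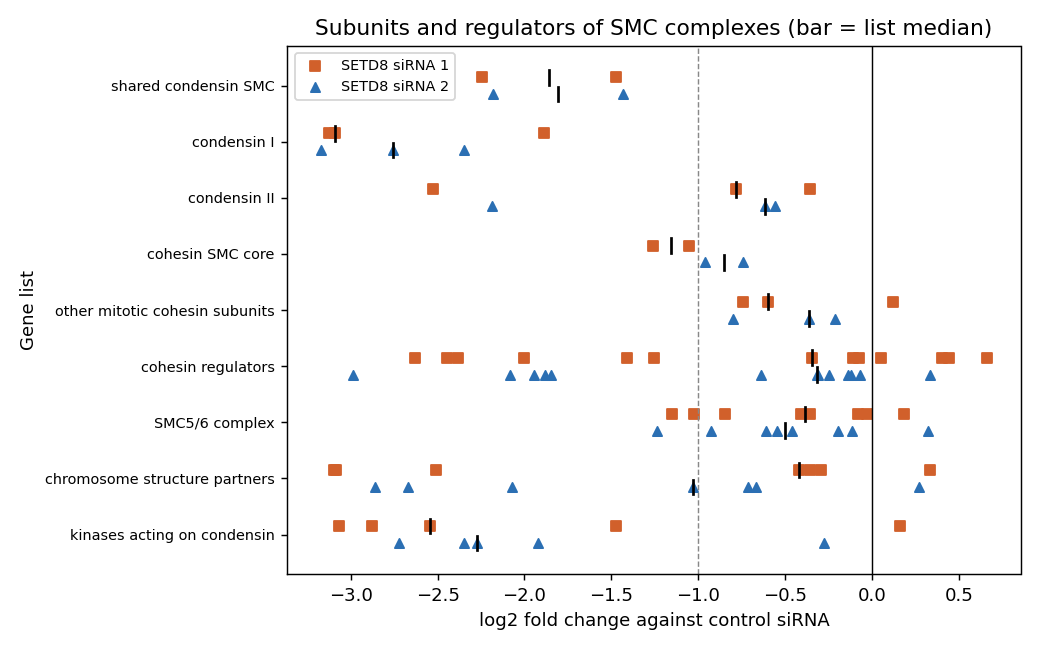
Log2 fold change against the control array of every gene that passed the filter in 9 lists, with SETD8 siRNA 1 as squares and SETD8 siRNA 2 as triangles (1 array each) and black bars for list medians. The condensin I subunits and 4 of the 5 kinases lie left of the dashed 2-fold line, and the structural cohesin genes outside the SMC core lie right of it.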

How the data were processed

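The deposited table holds intensity values, 1 linear signal per probe set and array, which the authors computed with MAS5 (per the submitters' processing notes); its version is not given in the sources used here, and detection calls were not used. The arrays share a common MAS5 scale, which would hide a shift of all genes, and low signals may be background. Probe sets were named through GEO's platform annotation with symbols updated to RefSeq (41091 with 1 gene, 1801 with several left out, 11721 unlisted). Signals under 11.7, the 25th percentile, were set to it before log2, which bounds folds against lower signals. Each gene was read from its brightest probe set (mean log2 over the arrays), and 12307 genes whose mean reached the median over probe sets (a signal of 42.0) were compared.

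With 1 array per siRNA there is no test: changes of 2-fold were counted and set beside the share of all genes. Alternatives tried were no filter, a 75th percentile filter, a pseudocount of 16, median scaling, quantile normalization, averaged probe sets, shared probe sets (_s_at, _x_at, _a_at) left out, and rules of 1.5-fold and 3-fold. The subunits, the related lists and the motifs were chosen with earlier results of these data known. Named were all 10 subunits, KMT5A, up to 4 genes per list by mean change with those behind small counts, and the 5 genes nearest to condensin I; TOP2B, AKAP8, NIPBL, WAPL, PDS5A, PTTG1, ESPL1, CSNK2A1 and the markers were named after their values were seen. Of the listed genes, 3 were not analysed here. Promoters were read on the gene's strand from a RefSeq table of GRCh38.p14. Python 3.11.15, numpy 2.4.6, pandas 2.3.3 and matplotlib 3.10.9 were used.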

Additional observations from a re-analysis of the deposited data

How the results depend on the processing

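All 10 subunit genes stayed lower than the control with both siRNAs under every alternative in which they could be measured. The count of genes at least 2-fold lower with SETD8 siRNA 1 was 8 and became 5 without shared probe sets, where 7 genes could be measured (NCAPD2 and NCAPG2 have only shared probe sets, and SMC3 then failed the filter), and 5 under a 3-fold rule. No other count of subunits moved by over 1.5 times, and the medians ranged from -1.60 to -1.76 with SETD8 siRNA 1 and from -1.77 to -1.86 with SETD8 siRNA 2. Of 130 recomputed values of single subunits, 4 crossed the 2-fold line, all with probe sets averaged. They were SMC1A (-0.55) and SMC3 (-0.95) with SETD8 siRNA 1, both through dim probe sets. With SETD8 siRNA 2 they were NCAPH2 (-1.12, through its probe set at the floor) and SMC3 (-1.02). Many of the 130 could not cross: a filter leaves a gene's value as it is, and averaging cannot change a gene with 1 probe set. Leaving out shared probe sets changes only genes whose brightest is shared. The 75th percentile filter left out NCAPH and NCAPH2. Over all genes, 1698 and 1614 were 2-fold lower without the filter and 460 and 348 above the 75th percentile, against 954 and 818, since other genes were compared. No replicate could be left out, and signal near background limits NCAPH2 and the dim probe sets of SMC1A and SMC3.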

Other observations

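The genes outside the 10 whose changes lay nearest to the mean of the 5 condensin I subunits, SMC2 and SMC4 included (-2.36 and -2.38), were CCNA2, cyclin A2 (-2.35 and -2.37), CCNF, cyclin F (-2.27 and -2.39), GINS3, a subunit of the replicative helicase (-2.42 and -2.30), DDIAS (-2.42 and -2.29) and FBXO5, the inhibitor of the anaphase promoting complex also called EMI1 (-2.34 and -2.48). Nearness was the Euclidean distance over the 2 log2 fold changes among 12297 genes, at most 0.11 for these 5, and it describes 3 arrays only. The meiotic cohesin genes SMC1B, RAD21L1 and STAG3 did not pass the filter, and REC8 had -0.07 and -0.28, the former being 0.03 after quantile normalization.

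Among genes of H4 lysine 20 methylation other than KMT5A, the demethylase PHF8, which removes the single methyl group, gave 200.7 on the control array, 164.8 with siRNA 1 and 164.9 with siRNA 2. KMT5C, which adds further methyl groups, was dim, with 92.0, 66.1 and 16.2. L3MBTL1, a reader of the mark, had 37.8, 57.4 and 77.8, a signal near the filter on all 3 arrays.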
